A study of Mus musculus with 6 samples.

Results

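The granins and the enzymes that cut and trim prohormones are the protein cargo and the processing machinery of the islet's secretory granules. They were followed here as 10 genes taken by symbol from the 55421 gene IDs of each count table: the granins Chga, Chgb, Scg2, Scg3 and Vgf, the convertases Pcsk1 and Pcsk2, the convertase chaperone Scg5, and the trimming enzymes Cpe and Pam. All 10 symbols matched 1 gene ID each, and all 10 were among the 17016 genes that passed the filter on low counts. The libraries came from pancreatic islets of wild-type (WT) C57BL/6 mice, 3 labelled vehicle and 3 labelled with stimulation by the ligand insB:9-23, named after a stretch of the insulin B chain. The sources used here give no age, dose, route or time of stimulation. They do not say either whether libraries came from separate animals or pools, so the p-values below speak of the spread among libraries, which may be technical.

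Hormones such as insulin and glucagon are made as longer precursors and packed into dense-core granules. Granins are acidic proteins that condense with the hormone in the forming granule, and several of them are themselves cut into smaller peptides. In the granule the convertases cut after pairs of basic residues, carboxypeptidase E removes those residues, and the amidating enzyme encoded by Pam caps some of the peptides. In textbook accounts the convertase encoded by Pcsk1 is the main one of beta cells for insulin and that encoded by Pcsk2 the main one of alpha cells for glucagon, although beta cells use both.

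None of the 10 genes passed the test between the groups, and for 6 of them (Chga, Chgb, Scg3, Scg5, Cpe and Pam) the insB:9-23 mean was 0.93 to 1.01 of the vehicle mean. Pcsk2 and Scg2, at 0.74 and 0.77 of the vehicle mean, were lower in all 3 insB:9-23 libraries than in any vehicle library, as were 7.12% of all genes tested. Pcsk1 was at 1.17 of the vehicle mean with overlapping groups. Vgf varied most between libraries, with counts from 6 to 755 in libraries of similar depth. Levels are given in CPM (counts scaled to library size with TMM factors) unless stated otherwise, as means ± SD over n = 3 libraries per group, and log2 folds are insB:9-23 against vehicle with their standard errors from edgeR.

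Total counts lay between 52052808 and 58880189 per library. Endocrine markers were present in every library, with Ins2 at 64947 ± 5538 CPM in the vehicle group, although the beta cell factor Mafa had 0 counts in all 6. The 27 acinar markers made up 25.2% to 29.4% of the vehicle counts against 27.9% to 43.0% of the insB:9-23 counts. In TMM-scaled CPM all 27 were highest in insB:9-23 replicate 3, whose TMM factor was the lowest (0.806), and by share of counts all but Clps and Bhlha15 were. The 5 B and plasma cell markers and the 5 T and NK cell markers were all highest in insB:9-23 replicate 2, at 0.00527% and 0.000844% of counts against at most 0.00121% and 0.000222% elsewhere. In bulk RNA, fewer endocrine cells and less RNA per endocrine cell cannot be told apart.

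Chga encodes chromogranin A, an abundant granin that takes part in granule formation. It stood at 10086, 9235 and 9702 CPM in vehicle replicates 1 to 3 and at 11021, 9128 and 8914 CPM in insB:9-23 replicates 1 to 3. The highest and the lowest value were both in the insB:9-23 group, so the groups overlapped, and the log2 fold was 0.00 ± 0.11 (95% interval -0.28 to 0.28, edgeR adjusted p = 1.00).

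Chgb encodes chromogranin B, a second abundant granin of the granule core. Its levels were 1295, 1347 and 1496 CPM in the vehicle libraries and 1392, 1448 and 1346 CPM in the insB:9-23 libraries. The insB:9-23 values lay inside the vehicle range, with a log2 fold of 0.02 ± 0.08 (95% interval -0.18 to 0.21, edgeR adjusted p = 0.99).

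Scg2 encodes secretogranin II, the precursor of the peptide secretoneurin. It was at 4696, 4974 and 5242 CPM in the vehicle libraries and at 4031, 4561 and 2950 CPM in the insB:9-23 libraries. The groups did not overlap, and insB:9-23 replicate 3, the library with the highest acinar share, was the lowest by a wide margin; the part of the acinar share in this value was not tested. The log2 fold was -0.37 ± 0.17 (95% interval -0.78 to 0.04, unadjusted p = 0.072, edgeR adjusted p = 0.88). Without insB:9-23 replicate 3 it was -0.21, and with the acinar share as a covariate -0.16.

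Scg3 encodes secretogranin III, which links chromogranin A to the granule membrane. Vehicle libraries held 749.1, 883.6 and 741.0 CPM and insB:9-23 libraries 732.8, 738.9 and 856.2 CPM. In each group 1 library stood above the rest, and the log2 fold was -0.03 ± 0.10 (95% interval -0.28 to 0.22, edgeR adjusted p = 0.98).

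Vgf encodes the precursor of several neuroendocrine peptides and was first known as a gene induced by nerve growth factor. Vehicle replicates 1 to 3 held 107, 92 and 614 raw counts and insB:9-23 replicates 1 to 3 held 6, 755 and 554, or 1.69, 1.47 and 11.5 CPM against 0.102, 13.4 and 12.1 CPM. The 3 high libraries and the 3 low ones cut across the groups. The 6 counts have an exact Poisson 95% interval of 2.2 to 13.1, which covers counting error only, so the gap to the other libraries is far larger than counting error. The log2 fold was 0.81 ± 1.52 (95% interval -2.96 to 4.57, edgeR adjusted p = 0.95), and limma-voom turned its direction (-0.31). It was 2.43 without vehicle replicate 3, 1.39 without insB:9-23 replicate 1 and between 0.32 and 0.47 without any 1 of the other libraries.

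The swing of Vgf was unlike that of the other members. Its highest library stood 131-fold above its lowest, whereas the other 9 genes ranged from 1.08-fold for Cpe to 1.93-fold for Pcsk1. Of 11028 tested genes that reached 5 CPM in some library, 159 (1.44%) swung at least as much, with a median swing of 1.4-fold. On GENCODE M21 the largest of the 6 exon blocks of Vgf holds 80.3% of its exon length. Scg2 (93.4%) and Chgb (64.5%) are also carried mostly by a single large exon, and their highest library stood 1.78-fold and 1.15-fold above their lowest. Whether exon structure has a part in these swings was not tested.

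**Figure D1:**
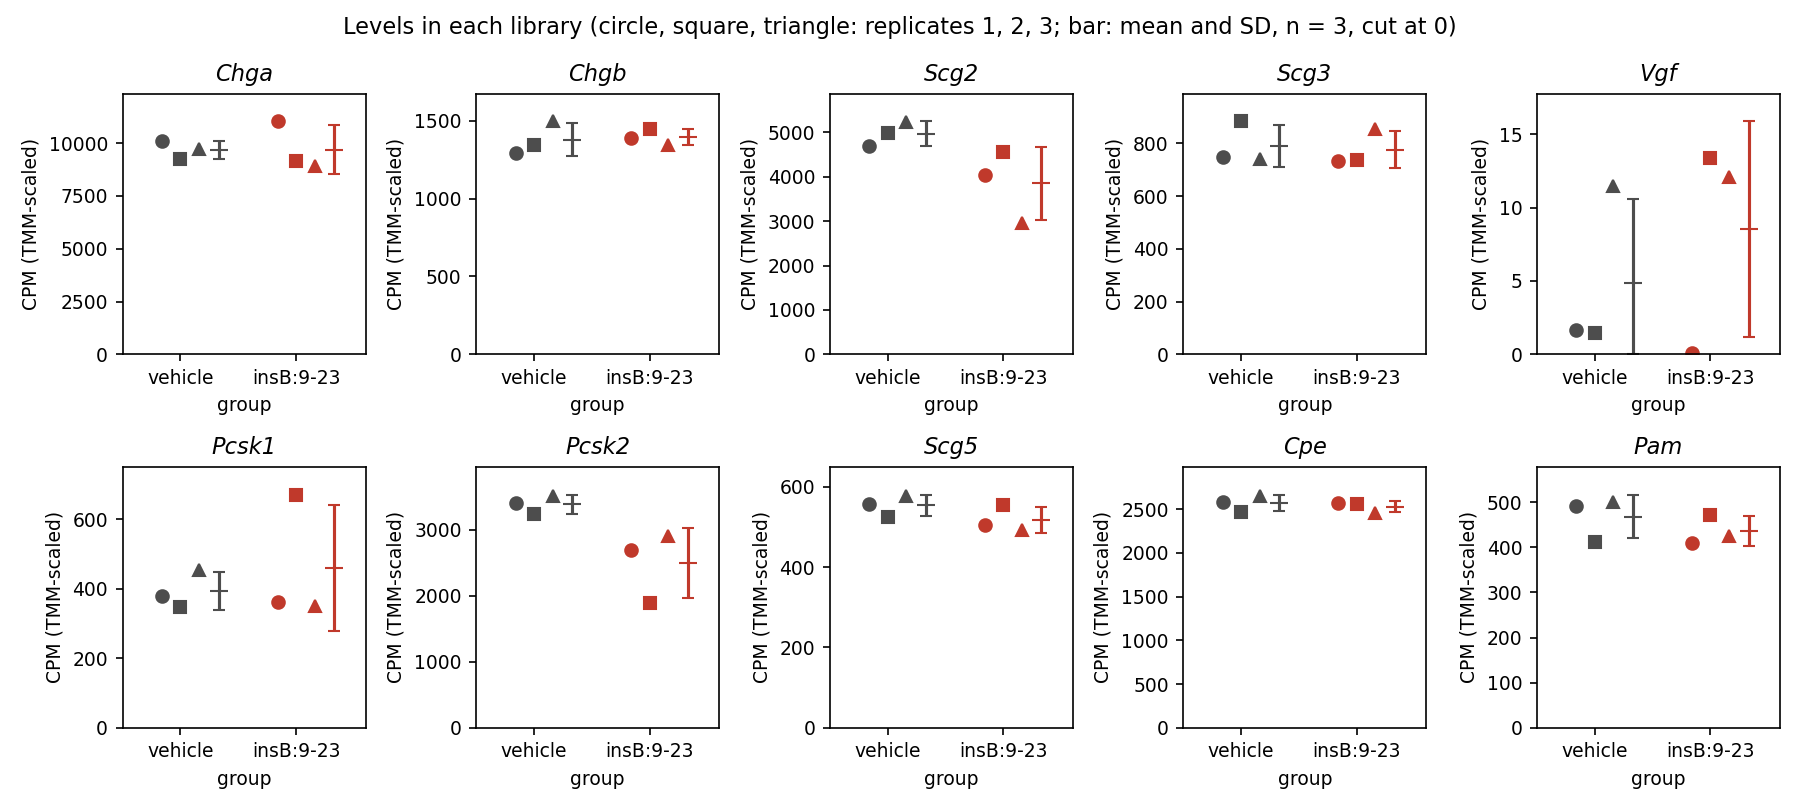
Level of each gene in each library (y axis, CPM from 0) by group (x axis); circles, squares and triangles are replicates 1, 2 and 3, and bars are the mean and SD of 3 libraries, cut at 0. Scg2 and Pcsk2 are the panels in which the insB:9-23 points all lie under the vehicle points, and the Vgf points fall into 3 high and 3 low libraries across the groups.

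The starts of the granin and convertase genes are shown because several of them share the palindrome TGACGTCA, the element bound by CREB-family factors. RefSeq windows of 250 bases before to 50 after the start (GRCm38.p6) were found for 8 of the 10 genes, with no entry for Cpe and Vgf. TGACGTCA, searched on both strands, was in the windows of 3 of these 8 genes (Scg2, Chgb and Pcsk1) and in 1.79% of all 32851 windows. Its core TGACG, which also counts every TGACGTCA, was in 7 of the 8 and in 20.8% of all windows. Members are counted here by gene and the background by window, so these shares differ in unit. The TATA element TATAAA, searched in the same way, was in the window of Chga alone, and in 13.6% of all windows. In Chga it begins 5 bases after the RefSeq start. Capitals mark 1 match in each stretch, and the Pcsk1 stretch also holds a lower-case TGACG that begins 50 bases before the start. The Scg2 and Chgb matches lie within an exon annotated by GENCODE M21, so only 28 bases are shown for them.
Scg2, chr1:79440077-79440104, minus strand: gctgagccggTGACGTCAgcgtggaatg
Chgb, chr2:132781560-132781587, plus strand: ggctgctccgTGACGTCAgggctgagcg
Pcsk1, chr13:75089749-75089816, plus strand: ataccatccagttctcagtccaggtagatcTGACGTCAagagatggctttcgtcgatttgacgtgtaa
Chga, chr12:102554867-102554934, plus strand: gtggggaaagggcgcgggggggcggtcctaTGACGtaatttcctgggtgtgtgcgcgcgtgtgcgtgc

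The first 3 matches begin 68, 72 and 78 bases before the RefSeq start, and that of Chga 44 bases before it. Upstream matches to the core alone in Scg3, Scg5 and Pcsk2, whose stretches are not shown, begin 30, 175 and 34 bases before it. That of Pcsk2 is on the strand opposite to the gene. GENCODE M21 places the start of Chga further downstream, at 102554969, so these distances depend on the start used. The genes that share the full palindrome differed in the libraries where Scg2 or Pcsk1 departed most from its own mean. Those libraries are given because of these departures, and a link between the element and the levels was not tested. In insB:9-23 replicate 3 the log2 level of Scg2 was 0.56 below its own mean (-0.56), that of Chgb was -0.04 and that of Pcsk1 -0.25, and in insB:9-23 replicate 2 they were 0.07, 0.06 and 0.69. A match is a stretch of letters only, and nothing in these counts measures binding to it.

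Pcsk1 and Pcsk2 encode the convertases of the granule, proteases that open prohormones at basic pairs. Pcsk2 was at 3401, 3232 and 3513 CPM in the vehicle libraries and at 2683, 1890 and 2898 CPM in the insB:9-23 libraries. Every insB:9-23 value lay below every vehicle value, and replicate 2 was the lowest. The log2 fold was -0.44 ± 0.17 (95% interval -0.85 to -0.03), with an unadjusted p of 0.039 and an edgeR adjusted p of 0.88, so Pcsk2 did not pass. Without insB:9-23 replicate 2 the fold was -0.28, and with the acinar share as a covariate -0.67. The antisense genes Pcsk2os1 and Pcsk2os2 overlap Pcsk2, and their counts came to at most 0.416% (Pcsk2os1) and 0.152% (Pcsk2os2) of those of Pcsk2 in any library.

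Pcsk1 levels were 379.2, 346.4 and 454.7 CPM in the vehicle libraries and 361.8, 670.4 and 349.6 CPM in the insB:9-23 libraries. A single library, insB:9-23 replicate 2, stood above all the others, and the remaining insB:9-23 values lay within the vehicle range. The log2 fold was 0.23 ± 0.28 (95% interval -0.47 to 0.93, edgeR adjusted p = 0.93), and without that library its direction turned (-0.15). The library in which Pcsk1 was highest and Pcsk2 lowest was also the one with the highest lymphocyte markers, whose part in the result was not tested. Its beta cell markers took 13.7% of counts and its alpha cell markers 2.31%, against 11.8% to 13.6% and 2.18% to 2.60% in the vehicle libraries.

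The balance of the convertases stood apart in 1 library. Per kilobase of exon, Pcsk1 stood at 0.157, 0.151 and 0.183 of Pcsk2 in the vehicle group, against 0.190, 0.501 and 0.170 in the insB:9-23 group. The groups overlapped, with a mean log2 difference of 0.63 (exact two-sided permutation p = 0.20, 0.30 adjusted over 3 ratios). Without insB:9-23 replicate 2 the log2 difference was 0.14. With 3 libraries against 3 the smallest p that this test can give is 0.10.

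Scg5 encodes the chaperone 7B2, which the Pcsk2 product needs to mature. It was at 557.7, 525.7 and 577.2 CPM in the vehicle libraries and at 504.9, 554.4 and 491.9 CPM in the insB:9-23 libraries, with a log2 fold of -0.10 ± 0.07 (95% interval -0.27 to 0.08, edgeR adjusted p = 0.89). The groups overlapped through vehicle replicate 2 and insB:9-23 replicate 2.

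Against Pcsk2, however, Scg5 was nearly constant in the vehicle group. The per-length ratio of Scg5 to Pcsk2 was 0.827, 0.820 and 0.828 in the vehicle group, against 0.949, 1.48 and 0.856 in the insB:9-23 group. All insB:9-23 ratios were above all vehicle ratios, with a mean log2 difference of 0.37 (exact two-sided permutation p = 0.10, the smallest possible, and 0.30 adjusted over the 3 ratios). Without insB:9-23 replicate 2 it was 0.13. Pcsk1n encodes proSAAS, an inhibitor of the Pcsk1 product, and its per-length ratio to Pcsk1 was 4.36 ± 0.587 in vehicle and 3.52 ± 1.31 after insB:9-23 (log2 difference -0.37, exact two-sided permutation p = 0.40, also 0.40 adjusted). The log2 difference was -0.09 without insB:9-23 replicate 2 and -0.64 without insB:9-23 replicate 1.

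**Figure D2:**
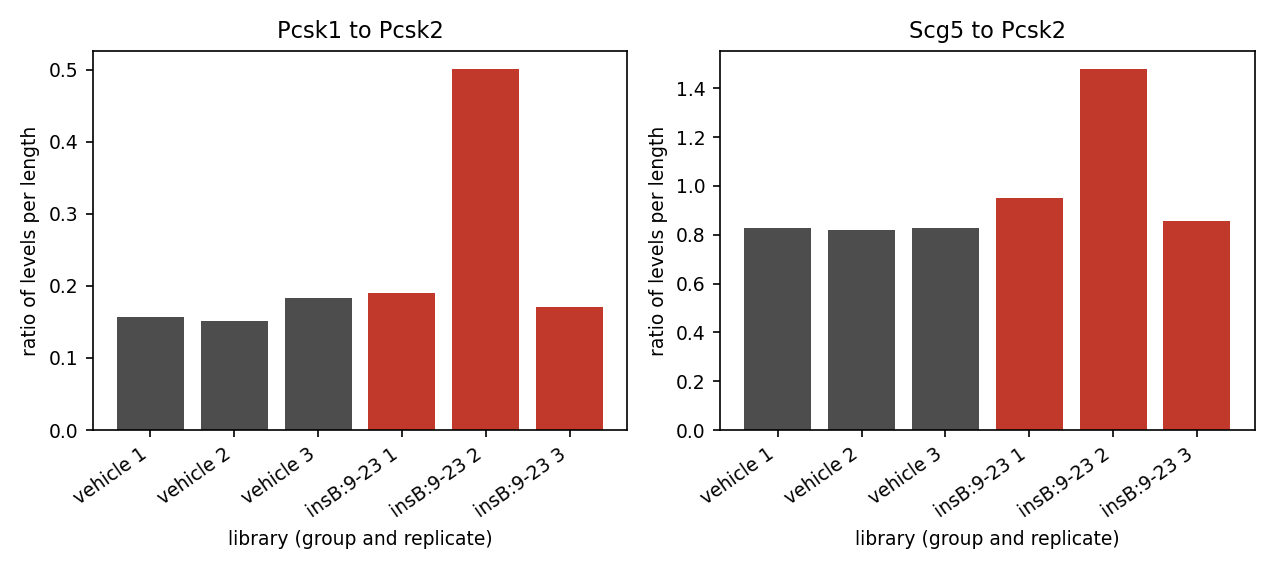
Ratio of levels per length (y axis, from 0) of Pcsk1 to Pcsk2 and of Scg5 to Pcsk2 in each library (x axis; grey, vehicle; red, insB:9-23). The bar of insB:9-23 replicate 2 stands at 0.501 and at 1.48, above the other 5 libraries in both panels, while the Scg5 to Pcsk2 ratio of the vehicle libraries stays between 0.820 and 0.828.

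Cpe encodes carboxypeptidase E, which removes the basic residues left by the convertases, and it was the steadiest of the 10 genes. Vehicle libraries held 2587, 2469 and 2654 CPM and insB:9-23 libraries 2571, 2562 and 2455 CPM. The ranges overlapped almost fully, and the log2 fold was -0.02 ± 0.07 (95% interval -0.19 to 0.15, edgeR adjusted p = 0.97). Its pooled within-group SD was 0.05 on the log2 scale, and 89.3% of the 1039 tested genes at 100 CPM or more varied more.

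Pam encodes peptidylglycine alpha-amidating monooxygenase, which amidates peptides such as amylin and pancreatic polypeptide. It stood at 491.5, 412.6 and 500.0 CPM in the vehicle libraries and at 408.7, 472.6 and 424.9 CPM in the insB:9-23 libraries. The groups overlapped, and the log2 fold was -0.10 ± 0.10 (95% interval -0.35 to 0.14, edgeR adjusted p = 0.91). The non-coding gene B230216N24Rik overlaps Pam on the same strand, with at most 0.395% of its counts.

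Of the 10 genes, 0 passed the edgeR test at an adjusted p of 0.05, against 0.0823% of all genes tested (14 of 17016). DESeq2 and limma-voom called 0 of the 10 as well. At an unadjusted p below 0.05 there was 1 member, Pcsk2, against 5.55% of all genes. The groups did not overlap for 2 members, Scg2 and Pcsk2, both lower in insB:9-23, against 7.12% of all genes lower and 6.40% higher. No member was higher without overlap. Log2 folds were below 0 for 6 of the 10 members, against 48.5% of all genes, and the median member fold was -0.03 beside 0.01 over all genes tested. The 95% intervals of 8 members lay between -0.85 and 0.28, so a 2-fold change in either direction was outside them. The interval of Pcsk1 (-0.47 to 0.93) also excluded it, and that of Vgf did not.

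**Figure D3:**
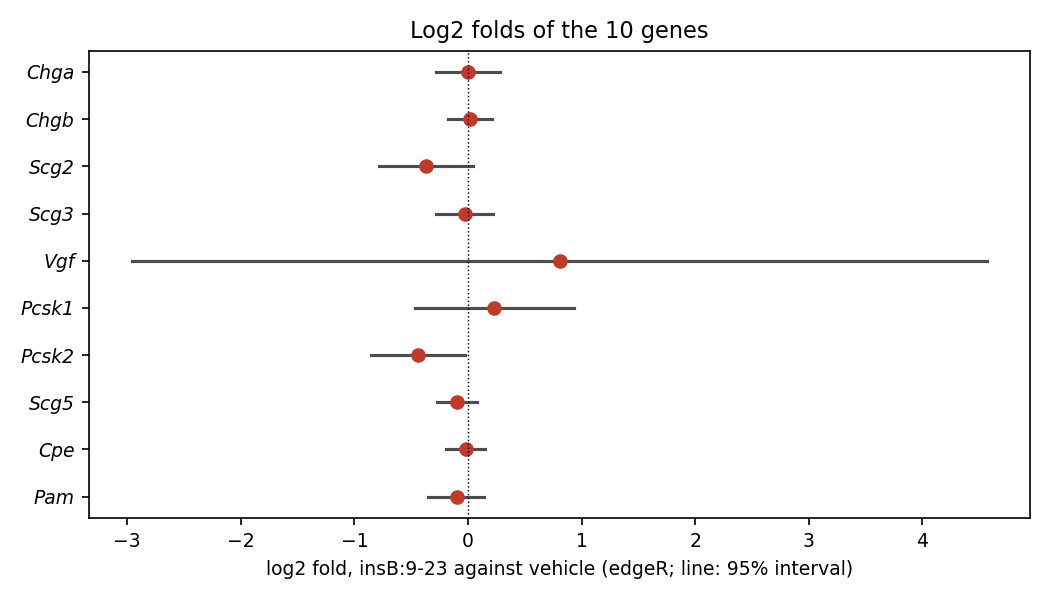
Log2 fold of each gene, insB:9-23 against vehicle (x axis; point, edgeR estimate; line, 95% interval; dotted line, no difference). Only the interval of Pcsk2 (-0.85 to -0.03) excludes 0 before adjustment for the number of genes tested, and that of Vgf (-2.96 to 4.57) is the widest.

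The libraries did not order the 10 genes alike. Vehicle replicate 3 was the highest library for 6 of them and the lowest for none, and insB:9-23 replicate 3 was the lowest for 4 and the highest for none. Scg2 departed in insB:9-23 replicate 3 (-0.56 from its own log2 mean), and Pcsk1 and Pcsk2 departed in opposite directions in insB:9-23 replicate 2 (0.69 and -0.61). Outside these and Vgf, deviations lay between -0.26 and 0.29. The within-group SDs of Pcsk1, Pcsk2 and Scg2 on the log2 scale were 0.53, 0.33 and 0.32 in the insB:9-23 group and 0.20, 0.06 and 0.08 in the vehicle group. The difference between these spreads was not tested.

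**Figure D4:**
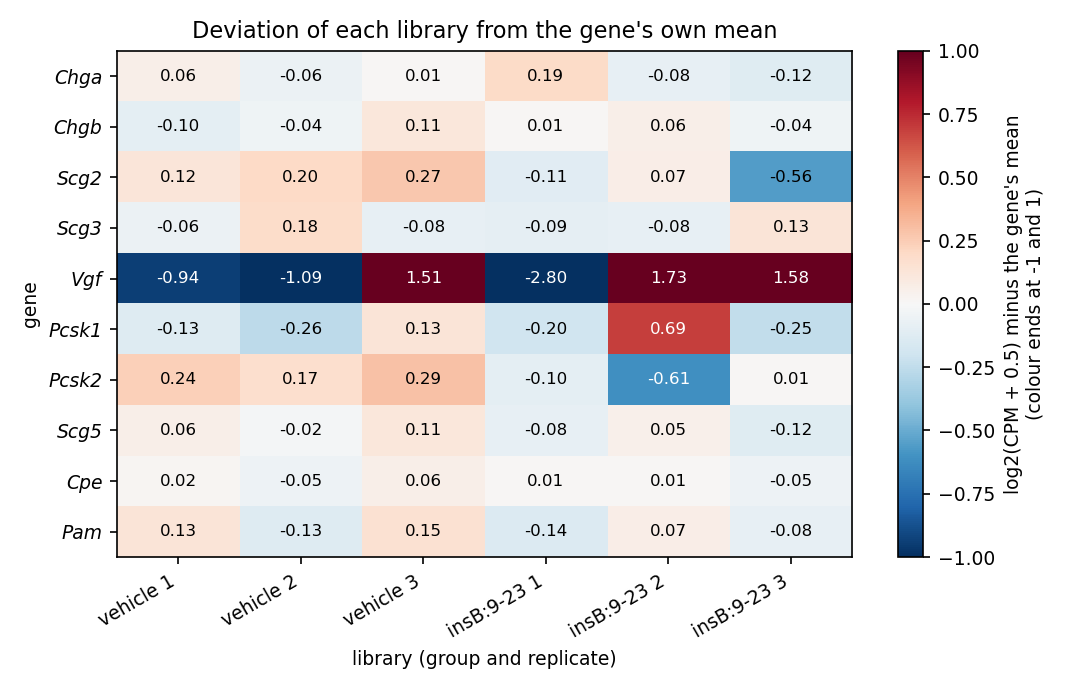
Deviation of log2(CPM + 0.5) from the gene's own mean over the 6 libraries, by gene (rows) and library (columns), with the value printed in each cell; colours end at -1 and 1. The strongest colours outside Vgf are Scg2 in insB:9-23 replicate 3 (-0.56) and Pcsk1 (0.69) and Pcsk2 (-0.61) in insB:9-23 replicate 2.

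The 10 genes together took 2.63%, 2.49% and 2.56% of the counts of vehicle replicates 1 to 3, against 2.38%, 2.31% and 1.67% for insB:9-23 replicates 1 to 3. The vehicle shares were all above the insB:9-23 shares, and the lowest share was in the library with 43.0% of acinar marker counts. Against the 19 beta, alpha, delta and PP cell markers, which hold the hormone genes, the members took 15.9, 17.1 and 17.8 counts per 100 marker counts in vehicle and 16.4, 14.2 and 15.0 after insB:9-23, and these ranges overlapped. On that footing Scg2 was at 34.9 ± 3.63 counts per 1000 marker counts in vehicle and 26.2 ± 4.23 after insB:9-23, and Pcsk2 at 23.7 ± 1.46 and 17.2 ± 4.59, both again without overlap. Scg5, at 3.87 ± 0.246 and 3.54 ± 0.0367, did not overlap either. Under this scaling 6.86% of all genes tested were lower and 4.08% higher without overlap. The log2 folds of Scg2, Pcsk2 and Scg5 were -0.41, -0.46 and -0.13 (edgeR adjusted p = 0.99 for each). The marker counts are mostly those of Ins1, Ins2 and Gcg, so this is largely a scaling to hormone genes. In TMM-scaled CPM, 4 of the 8 beta cell markers tested were themselves lower without overlap and 0 were higher. Over all genes tested these shares were 7.12% and 6.40%.

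Per length, the members spanned 3 orders of magnitude only through Vgf, whose level varied widely between libraries. Without Vgf they ran from 38.0 to 3513 CPM per kilobase of exon. Chga was the highest at 3513 CPM per kilobase of exon (mean over the 6 libraries, SD 283.5), followed by Scg2 (1753, SD 327.4), Cpe (977.2, SD 28.8) and Chgb (506.3, SD 27.0). Pcsk2 (371.2, SD 75.8), Scg5 (341.2, SD 21.2) and Scg3 (286.2, SD 24.7) came next with overlapping ranges. Within libraries Pcsk2 was above Scg5 in 5 of 6 and Scg5 above Scg3 in 6 of 6, so the order of the first pair is not firm. Pcsk1 (76.2, SD 22.4), Pam (38.0, SD 3.46) and Vgf (2.26, SD 2.09) were the lowest, without overlap between neighbours. With the length of the longest transcript in place of all exons, Pcsk2 (621.7) came before Chgb and Pam (110.1) before Pcsk1 (84.7), since the exon union of Pam (11892 bases) is far longer than its longest transcript (4102 bases).

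**Figure D5:**
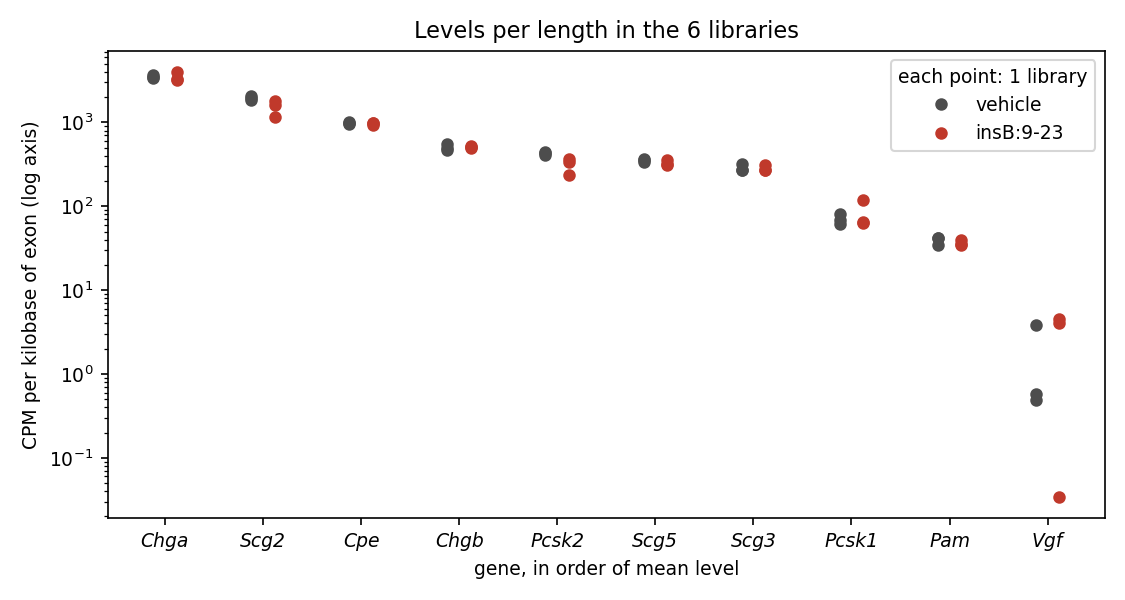
CPM per kilobase of exon (y axis, log axis) for each gene in order of mean level (x axis); each point is 1 library, grey for vehicle and red for insB:9-23. Chga lies between 3234 and 3999, Pcsk2, Scg5 and Scg3 lie in overlapping ranges, and Vgf spreads from 0.0344 to 4.51.

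On GRCm38 with GENCODE M21 the genes lie on 7 chromosomes. Chromosome 2 holds Scg5 (113776362 to 113829121), Chgb (132781278 to 132795079) and Pcsk2 (143546156 to 143816285), and chromosome 1 holds Scg2 (79434669 to 79440120) and Pam (97795114 to 98095646). Vgf is on chromosome 5 (137026392 to 137033351), Cpe on chromosome 8 (64592542 to 64693054), Scg3 on chromosome 9 (75643189 to 75684056), Chga on chromosome 12 (102554969 to 102565028) and Pcsk1 on chromosome 13 (75089826 to 75134861).

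The other genes of the route through the granule showed 1 call. Among 20 genes of granule formation and cargo sorting, Sort1, the sorting receptor sortilin, fell by 1.46 ± 0.10 on the log2 scale (edgeR adjusted p = 0.011), from 188.4, 200.9 and 236.0 CPM to 75.8, 72.2 and 78.9 CPM. The fold stayed between -1.62 and -1.36 under 18 alternatives, but edgeR no longer called it without vehicle replicate 2 (adjusted p = 0.054), without insB:9-23 replicate 1 (0.057) or without insB:9-23 replicate 2 (0.072), and with the acinar share as covariate the adjusted p was 0.072. The other 19 did not pass, with 13 of the 20 folds below 0, a median of -0.05, and 5 members lower and 1 higher without overlap. Over all genes tested 48.5% of folds were below 0, and 7.12% were lower and 6.40% higher without overlap. Ptprn and Ptprn2, granule membrane proteins with the highest per-length levels in that list, were at 481.4 ± 46.2 and 476.4 ± 46.2 CPM and at 783.1 ± 32.4 and 708.9 ± 33.2 CPM (vehicle first, here and in the lists that follow). Vti1a, a SNARE protein, was at 5.45 ± 0.0792 and 7.3 ± 0.761 CPM (edgeR adjusted p = 0.88).

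Of 7 other proprotein convertases none passed, and their median log2 fold was 0.01. Pcsk7, a convertase of the secretory pathway, was at 17.4 ± 1.19 and 20.1 ± 0.87 CPM (unadjusted p = 0.068, edgeR adjusted p = 0.88). Furin, the convertase of the trans-Golgi network, was at 52.4 ± 10.4 and 52.9 ± 4.37 CPM, and Mbtps1, the site-1 protease, at 135.4 ± 7.48 and 130.4 ± 2.98 CPM. The groups overlapped for both.

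Among the 7 inhibitors and other trimming or modifying enzymes, 6 were tested and none passed (median log2 fold -0.21). Pcsk1n levels were 670.7, 657.8 and 660.2 CPM in the vehicle group, against 694.5, 601.4 and 461.7 CPM in the insB:9-23 group, with its lowest value, like that of Scg2, in insB:9-23 replicate 3. Qpctl, a glutaminyl cyclase of the Golgi, was at 32.4 ± 1.45 and 26.2 ± 2.36 CPM (unadjusted p = 0.019, edgeR adjusted p = 0.88). Cpm, a carboxypeptidase of the cell surface, was at 20.6 ± 1.0 and 23.9 ± 2.72 CPM, and Ctsl, cathepsin L, at 130.8 ± 10.6 and 140.7 ± 11.5 CPM.

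The 17 genes of granule acidification, mostly subunits of the proton pump, had 11 folds below 0, a median of -0.14, and 5 members lower and 1 higher without overlap (all genes: 48.5% below 0, 7.12% lower and 6.40% higher without overlap), and none passed. Atp6v0a1, a membrane subunit of that pump, was at 109.2 ± 4.37 and 95.5 ± 4.45 CPM (unadjusted p = 0.025, edgeR adjusted p = 0.88), and Atp6v0a2 at 64.1 ± 0.594 and 56.6 ± 4.12 CPM. The accessory subunits Atp6ap1 and Atp6ap2 were at 198.2 ± 9.49 and 185.7 ± 9.34 CPM and at 217.3 ± 18.9 and 197.0 ± 15.8 CPM.

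The substrates of the enzymes gave no call either. Of 11 prohormone genes 10 were tested, with 5 folds above 0 and 5 below and a median of -0.03. Ins1 and Ins2, the mouse insulin genes, had log2 folds of 0.01 ± 0.10 and 0.10 ± 0.14. Ppy, the gene of pancreatic polypeptide, averaged 562.2 ± 69.9 and 446.2 ± 40.3 CPM (unadjusted p = 0.029, edgeR adjusted p = 0.88), and Nucb2, the precursor of nesfatin, at 176.7 ± 18.0 and 201.6 ± 27.6 CPM.

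None of the 8 proinsulin folding genes passed (median log2 fold -0.11). The disulfide oxidase gene Ero1lb (also named Ero1b) was at 1983 ± 182.3 and 1749 ± 137.5 CPM and its relative Ero1l (Ero1a) at 76.4 ± 3.25 and 68.9 ± 1.11 CPM. P4hb, a protein disulfide isomerase, was at 779.7 ± 122.3 and 869.8 ± 89.0 CPM, and Pdia6, another, at 393.5 ± 36.9 and 347.8 ± 13.5 CPM. Of 8 regulators of granin and convertase genes 7 were tested and none passed (median log2 fold 0.15). Isl1 and Nkx2-2, endocrine transcription factors, were at 61.4 ± 1.96 and 69.1 ± 6.39 CPM and at 99.0 ± 1.73 and 91.0 ± 8.68 CPM. Crem, a CREB-family factor, was at 12.2 ± 2.18 and 10.1 ± 0.776 CPM. Creb1, of the same family, was added after its values were seen. It was at 46.5, 11.2 and 41.4 CPM in the vehicle libraries and at 38.8, 45.0 and 30.1 CPM in the insB:9-23 libraries.

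By root mean square distance of centred log2 profiles over the 6 libraries, the genes nearest to the mean of the 10 members, among 967 others at 100 CPM or more, were Actr2 (0.104), Serbp1 (0.105) and Hsp90aa1 (0.110), beside a median distance of 0.233. That mean is drawn by Vgf. Without Vgf, a choice made after its values were seen, Copb1 (0.014), Iqgap1 (0.020) and Vcp (0.023) were nearest, beside a median of 0.132. With 6 libraries and 967 genes some profiles lie close together whatever their function.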

How the data were processed

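Islet RNA was extracted with TRIzol and made into libraries with a KAPA stranded kit, per the labels' protocols. Each library has 1 table of unnormalized read counts by Ensembl gene ID, as the authors deposited it. HISAT, featureCounts 1.5.0-p3, DESeq 1.8.3 and build GRCm38 are named in the submitters' processing notes, without their roles. Strand setting and annotation release were not given in the sources used here. Symbols and exon lengths came from GENCODE M21 (55240 of 55421 IDs matched), and promoter windows and the newer names of Ero1l and Ero1lb from RefSeq tables on GRCm38.p6.

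Group differences were fitted by edgeR 4.0.16 under R 4.3.3 (filterByExpr, TMM factors, robust quasi-likelihood F test, Benjamini-Hochberg over 17016 genes, threshold 0.05). Standard errors are the fold divided by the root of F, and 95% intervals use the t quantile of the test's degrees of freedom. Ratios of single genes were tested by exact permutation over libraries. At these depths 3 counts equal 0.0474 to 0.0654 CPM. Tested on simulated counts, a larger share of the calls of DESeq2 than of edgeR fell on unchanged genes. Between libraries of 1 group the chi-square per degree of freedom was 80.0 to 247.1, so none was a repeat deposit of another in its group. Libraries of different groups were not compared in this way.

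The members and gene lists were chosen with earlier results of these data known. All members are named. Of each related list the text names called genes, the 2 with the smallest p, the 2 with the highest per-length level and some fixed genes; a gene that this rule names is not reported here. Alternatives were other scalings, DESeq2 1.42.0, limma-voom (limma 3.58.1), other filters, the replicate number as a block, an acinar covariate, libraries left out, another gene length and, added after the data were seen, scaling to endocrine markers and the count of members without overlap.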

Additional observations from a re-analysis of the deposited data

How the results depend on the processing

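No member was called under any of 18 alternatives, of which 1 sets a lone insB:9-23 library against vehicle with the spread taken from the vehicle group alone, and Scg2, Scg5, Pcsk2 and Pam kept a log2 fold below 0 in all of them. Ranges were -0.51 to -0.16 for Scg2, -0.67 to -0.28 for Pcsk2, -0.24 to -0.04 for Scg5 and -0.25 to -0.05 for Pam, and the lowest adjusted p of any member was 0.56 (Pcsk2, DESeq2). Over all genes, 116 were called by DESeq2, 7 with the acinar share as covariate, 70 for insB:9-23 replicate 1 alone against vehicle, and 16 to 26 without 1 library in turn. The cause of these changes was not tested. With a replicate block 0 genes were called by edgeR (605 at an unadjusted p below 0.05). Same-numbered libraries did not deviate together (correlations -0.03, -0.07 and -0.01), with 0 of 3 vehicle libraries closest to its own number. The sources used here do not say what a shared number means. With 3 libraries per group these correlations cannot decide whether it marks a shared animal or day. Sort1 was at -1.46 with the replicate block (edgeR adjusted p = 0.32).

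With no scaling factors beyond library totals, the all-gene median moved to -0.14, that of the members to -0.18, Chga to -0.14 and Chgb to -0.13. The median member fold was -0.13 for insB:9-23 replicate 1 alone, where Pcsk1 was at -0.12 and Vgf at -5.55. Chga turned to -0.01 with totals without acinar markers and with limma-voom, to -0.02 with totals of endocrine markers, and to -0.00 with no filter and with the block. Chgb was at -0.02 with totals of endocrine markers, Vgf at -0.31 with limma-voom and Cpe at 0.00 with the acinar covariate. Without 1 library in turn, folds ran from -0.10 to 0.06 for Chga, -0.03 to 0.08 for Chgb, -0.10 to 0.06 for Scg3, -0.05 to 0.00 for Cpe, -0.15 to 0.39 for Pcsk1 and 0.32 to 2.43 for Vgf, which was at 0.03 with the replicate block. Between 2 and 5 members were lower without overlap, with 5 without vehicle replicate 2 (Scg2, Scg5, Pcsk2, Cpe and Pam); over the libraries left out in turn, 11.1% to 13.4% of all genes were lower without overlap. Vgf was higher without overlap once insB:9-23 replicate 1 was left out (11.7% of all genes). Among the members only Vgf had low counts, down to 6 in insB:9-23 replicate 1, whose total count was 58445046.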

Other observations

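Several transcription factor genes of endocrine cells had counts that were absent or very unequal between libraries, as Vgf did; they were singled out after their values were seen. Insm1 and Mafa, each annotated with 1 exon, had 0 counts in all 6 libraries, which allows at most 0.0474 to 0.0654 CPM per library, for counting error only. Neurod1, with 2 exon blocks, was at 178.7, 23.3 and 186.6 CPM in vehicle replicates 1 to 3 and at 174.2, 172.4 and 172.3 CPM in insB:9-23 replicates 1 to 3, so that a single vehicle library set its group SD of 92.1 CPM.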
